A study of Caenorhabditis elegans with 24 samples.

Results

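In whole *C. elegans*, 61 genes had total mRNA that moved at least 2-fold one way under dietary restriction (DR) and at least 2-fold the other way in a well-fed *daf-2;rsks-1* double mutant, each set against wild-type worms fed ad libitum (AL). Of these, 46 were lower under DR and higher in the mutant, among them genes of the embryonic apical matrix, the lysozyme *lys-7* and cuticle collagens. The other 15 were higher under DR and lower in the mutant, among them the cathepsin B-like proteases *cpr-1* and *cpr-4* and a row of 4 neighbouring *nspc* genes. They were taken from the 8360 of 45461 genes whose level averaged 8 CPM or more in the 16 wild-type libraries, and were chosen by the difference between group means of log2(CPM + 0.5) in total mRNA. The groups compared were N2 under AL, N2 under DR and *daf-2;rsks-1* under AL, each of them sequenced as total mRNA and as translated mRNA with 4 libraries per pool, 24 libraries in all. All worms were raised at 20 °C on OP50 bacteria, were given FUdR, started their diet at day 1 of adulthood and were lysed at day 4, and the labels give a food density of 11 on a log10 CFU scale for AL and 9 for DR. Translated mRNA is the polyadenylated RNA that sedimented with at least 2 ribosomes, and the total mRNA was taken as an aliquot from the same lysates. The alleles of *daf-2* and *rsks-1* are not given in the sources used here, and no strain with either mutation alone is in the series, so the part of each mutation, and of strain background, cannot be told apart.

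The *daf-2* gene encodes the insulin/IGF-1 receptor of *C. elegans*, and lowering its activity lets the forkhead transcription factor DAF-16 enter nuclei and change the transcription of stress, defense and metabolic genes. The *rsks-1* gene encodes the ribosomal S6 kinase, which acts below TOR and promotes translation and growth when nutrients are plentiful. DR by food dilution lowers nutrient intake and, like loss of either gene, is known to extend life span. Polysomes are mRNAs carrying several ribosomes, so sequencing them reads out the mRNA that is being translated.

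The libraries had 7960544 to 15658505 reads on genes. The *rsks-1* mRNA was at 11.3 to 17.4 CPM in the 8 mutant libraries and at 57.0 to 101 CPM in the 16 N2 libraries, and the DAF-16 target *mtl-1*, a metallothionein, was at 436 to 1049.9 CPM against 19.8 to 102 CPM. The *daf-2* mRNA was not lower in the mutant (32.5 to 53.2 CPM against 27.3 to 64.1 CPM). An rRNA gene, F31C3.9, took 11.4 to 20.8% of the reads of the DR translated libraries, 1.87 to 7.70% under AL and 2.92 to 6.52% in the mutant. Its part in the results was not tested. The 4 libraries of a group are described as biological quadruplicates, and the p-values measure the spread between these libraries only. Under DR, 9 of 9 body muscle markers and 4 of 8 neuron markers kept rose on polysomes. In the mutant 6 of 11 intestine markers kept fell on polysomes and 0 rose. Among these 11, the gut esterase gene *ges-1* was higher in the mutant by 0.83 on the log2 scale, under 2-fold. These markers were lists for tissues. Their part in the results was not tested.

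The changes that chose the genes were those in total mRNA, so these are given as a description without a test. The minimum level was taken over the total and translated N2 libraries together, and 10 of the 46 genes and 4 of the 15 reached it only with their translated mRNA. Of the 46 these were *hch-1*, *lpr-3*, *noah-2*, F56D6.8, Y51B9A.8, *nhr-62*, *eol-1*, *drd-1*, F13H8.11 and *fbxa-98*. Of the 15 they were *vmo-1*, W03D8.8, *nspc-17* and *nspc-19*. Among the 46 genes, the change under DR ran from -5.43 to -1.01 on the log2 scale with a median of -1.87, and the change in the mutant ran from 1.01 to 3.47 with a median of 1.37. Among the 15 genes, the changes ran from 1.09 to 3.13 under DR (median 1.36) and from -3.17 to -1.07 in the mutant (median -1.84). Over all 8360 genes, 7.87% were at least 2-fold lower and 3.82% at least 2-fold higher under DR, and 3.3% were at least 2-fold higher and 3.78% at least 2-fold lower in the mutant, so the 61 genes are 0.73% of the genes kept. In total mRNA the groups did not overlap for any of the 61, which also held over all genes for 44.1% lower and 34.5% higher under DR and for 26.4% higher and 48.5% lower in the mutant. In comparison, 118 genes were at least 2-fold lower in both and 43 were at least 2-fold higher in both. The genes just inside the threshold were F55H12.4 with a smaller change of 1.01, the cuticle collagen *dpy-17* with 1.01 and the F-box gene *fbxa-98* with 1.02. Just outside were K09C4.5 with 0.99, the UDP-glucuronosyltransferase *ugt-50* with 0.98 and C06B8.7 with 0.98. Both contrasts share the AL libraries, and in whole worms fewer cells of a type and less RNA per cell cannot be told apart.

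**Figure D1:**
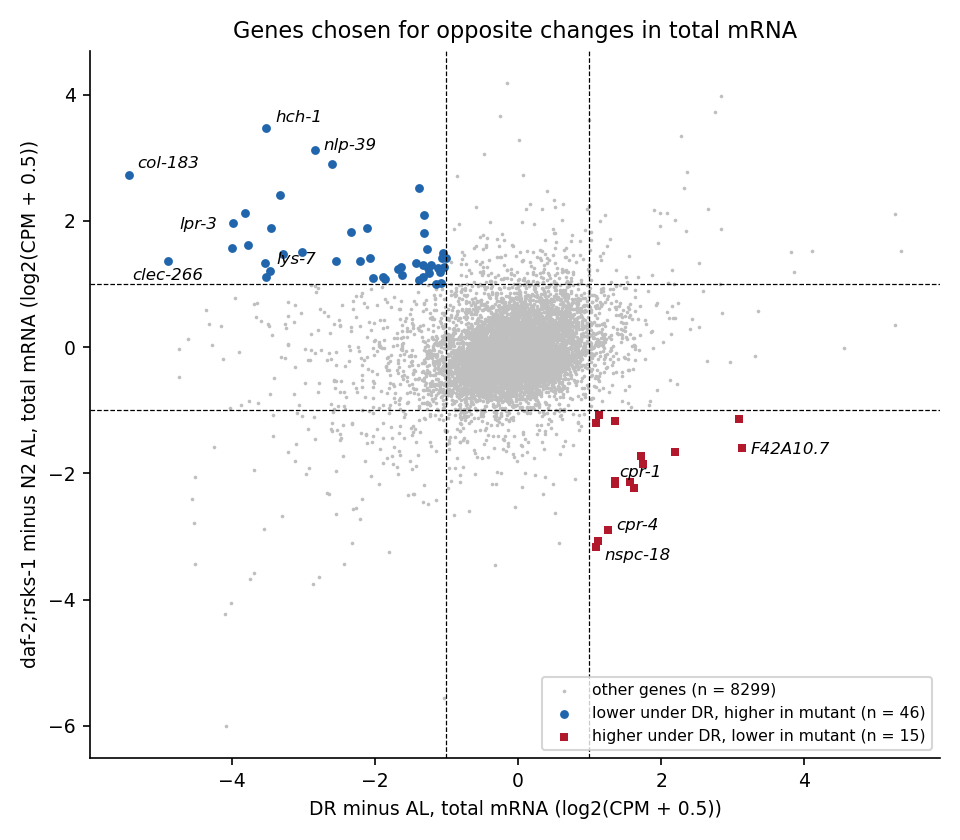
Each point is a gene of the 8360 kept; the horizontal axis is the difference DR minus AL and the vertical axis the difference daf-2;rsks-1 minus N2 AL, both in total mRNA on the log2(CPM + 0.5) scale. The dashed lines mark a 2-fold change, and the 46 blue and 15 red points lie in the corners that chose them.

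The change in translated mRNA, which entered the choice only through the minimum level, had the same direction for most of these genes. Translated mRNA came from the same lysates as the total mRNA that chose the genes, so this direction is not independent of the choice. Of the 46 genes, 31 fell on polysomes under DR (limma, Benjamini-Hochberg adjusted p under 0.05 and at least 2-fold) and 0 rose (0 also at an unadjusted p under 0.05 and by edgeR), against 7.87% of all genes tested that fell. Their median change was -1.47 on the log2 scale, and that of all 8360 genes was -0.09. In the mutant, 29 of the 46 rose and 0 fell (1, F15D4.5, at an unadjusted p under 0.05, and 0 by edgeR), against 3.78% of all genes tested that rose, with a median of 1.29 against -0.10 for all genes. Both calls together were made for 18 of the 46 genes and neither for 4. Of the 15 genes, 14 rose on polysomes under DR (7.48% of all genes tested rose) with a median of 1.82, and 12 fell in the mutant (6.66% of all genes tested fell) with a median of -2.503. Among genes that reached the minimum on N2 total mRNA alone, 26 of 36 fell under DR (7.7% of 7952 such genes) and 21 of 36 rose in the mutant (3.38%), and of the reverse set 10 of 11 rose (6.56%) and 8 of 11 fell (6.43%). The median SE was 0.08 for the 46 genes and 0.12 for the 15. The DR and mutant contrasts share the 4 AL translated libraries, which come from the same lysates as the total mRNA, and are therefore given side by side only. The mutant call over all genes leans on the scaling: 36.2% of the calls in the mutant were increases as deposited, 69.9% without the composition factor and 48.4% with edgeR on recovered reads, and for DR 48.7% as deposited and 38.1% without the factor. Without it, the median change of all genes in the mutant moved from -0.10 to 0.21, and 38 of the 46 genes rose.

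Libraries of the groups were mostly apart. All 4 DR values lay below all 4 AL values on polysomes for 41 of the 46 genes (41.6% of all genes tested), and all 4 mutant values lay above them for 45 of the 46 (27.1% of all genes tested). For the 15 genes, all 4 DR values lay above the AL values for all 15 (31% of all genes tested), and all 4 mutant values lay below for all 15 (42.4% of all genes tested). By the same total mRNA threshold, 347 of 612 other genes lower under DR (56.7%) fell, with a median of -1.17, and 220 of 304 other genes higher under DR (72.4%) rose, with a median of 1.44. The share was 67.4% for the 46 genes and 93.3% for the 15. In the mutant, 144 of 230 other genes higher in total mRNA (62.6%) rose, against 63.0% of the 46, and 239 of 301 other genes lower (79.4%) fell, against 80% of the 15. Whether these shares differ was not tested.

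**Figure D2:**
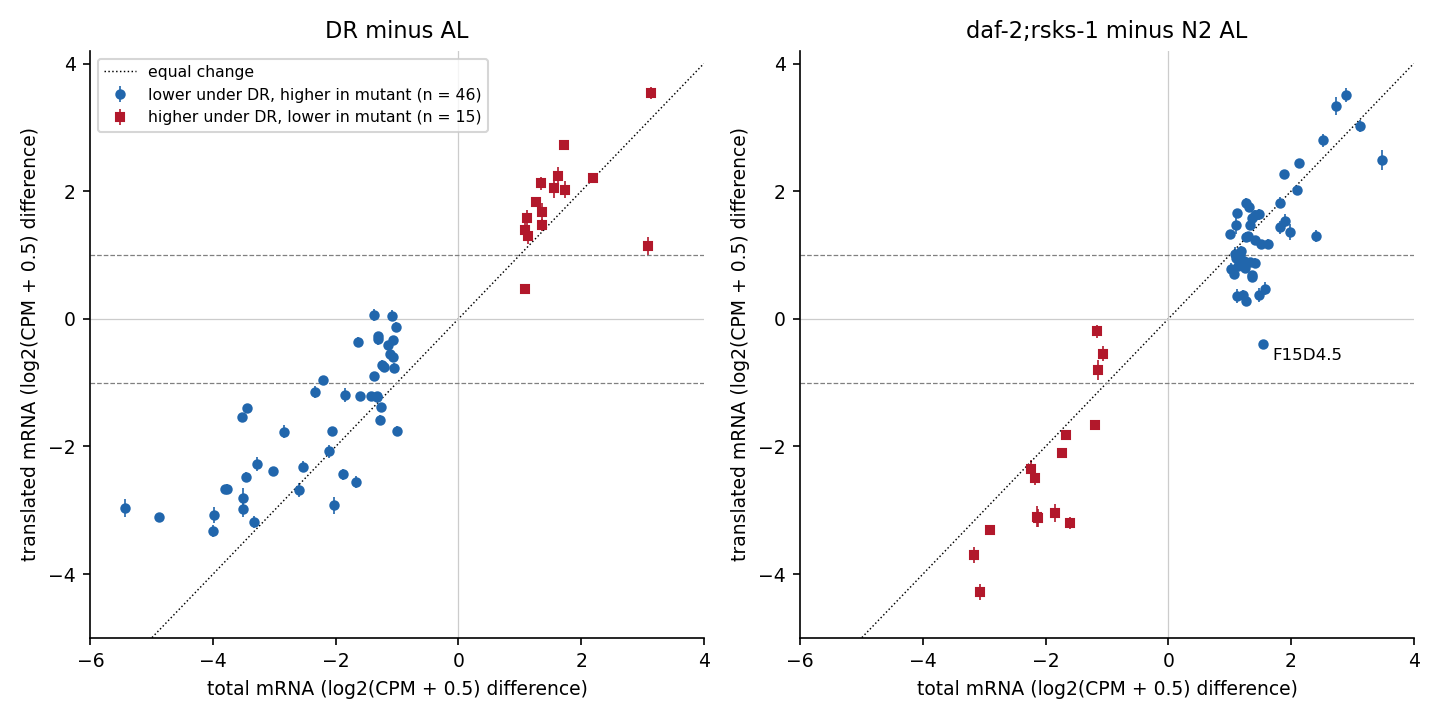
Change in translated mRNA (vertical, with its SE) against the change in total mRNA that chose the genes (horizontal), for DR minus AL (left) and daf-2;rsks-1 minus N2 AL (right), log2(CPM + 0.5). Dashed lines mark a 2-fold change and the dotted line an equal change; 39 of the 46 blue genes lie above the dotted line on the left, and F15D4.5 is the blue gene below 0 on the right.

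Among the 46 genes, *noah-1* and *noah-2* (zona pellucida domain proteins), *sym-1* (a leucine-rich repeat protein) and *lpr-3* (a lipocalin) encode parts of the apical matrix that the epidermis lays down over the elongating embryo and again ahead of a new cuticle. The astacin protease *hch-1*, which is needed for the larva to leave the eggshell, was among them too. In total mRNA, *hch-1* was at 9.46, 10.699, 9.75 and 10.04 CPM under AL, 0.511, 0.630, 0.295 and 0.282 CPM under DR and 111, 118.9, 114 and 121 CPM in the mutant. No group overlapped another, and the mean of the mutant was 270.3-fold that of DR, which rests on 23 reads over the 4 DR libraries. In translated mRNA, *hch-1* was at 19.7, 18.97, 20.3 and 19.8 CPM under AL, 1.17, 2.04, 3.92 and 3.23 CPM under DR and 105, 118, 110.4 and 118.8 CPM in the mutant. It fell by 2.81 ± 0.16 SE under DR and rose by 2.49 ± 0.16 SE (limma adjusted p = 9.62e-17) in the mutant, both in log2 units. *hch-1* reached the minimum level only with its translated mRNA, which was high under AL. Its fall on polysomes is therefore given as a description without a test.

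The lipocalin gene *lpr-3* was at 8.88 to 11.6 CPM under AL, 0.073 to 0.295 CPM under DR and 39.8 to 44.3 CPM in the mutant in total mRNA, where the 4 DR libraries held 11 reads together. On polysomes it was at 21.1, 20.9, 21.7 and 23.7 CPM under AL, 2.48, 2.72, 2.47 and 1.21 CPM under DR and 54.8, 57.0, 54.3 and 61.2 CPM in the mutant. The groups did not overlap, and the changes were -3.08 ± 0.13 SE under DR and 1.36 ± 0.13 SE (limma adjusted p = 1.04e-11) in the mutant. Like *hch-1*, *lpr-3* and *noah-2* reached the minimum level only with translated mRNA, so their falls under DR are a description too. For *sym-1*, the translated levels were 40.6, 42.7, 39.1 and 38.9 CPM under AL, 3.21, 3.06, 3.19 and 5.12 CPM under DR and 53.5, 57.9, 55.7 and 56.9 CPM in the mutant. The mutant libraries were above those of AL, but by 0.47 ± 0.10, which is under 2-fold, whereas the fall under DR was -3.33 ± 0.10 (SE; limma adjusted p = 1.52e-26), the deepest on polysomes of the 61 genes. Both *noah* genes fell under DR, with changes of -2.32 ± 0.09 for *noah-1* and -2.08 ± 0.10 for *noah-2*. On polysomes *noah-1* was at 47.6, 47.8, 48.4 and 39.4 CPM under AL, 9.33, 6.80, 10.2 and 9.16 CPM under DR and 64.0, 73.8, 74.99 and 76.7 CPM in the mutant. In the mutant *noah-2* rose (1.54 ± 0.10 SE, limma adjusted p = 2.99e-16) and *noah-1* differed by 0.66 ± 0.09 (SE; limma adjusted p = 2.09e-08), short of 2-fold.

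**Figure D3:**
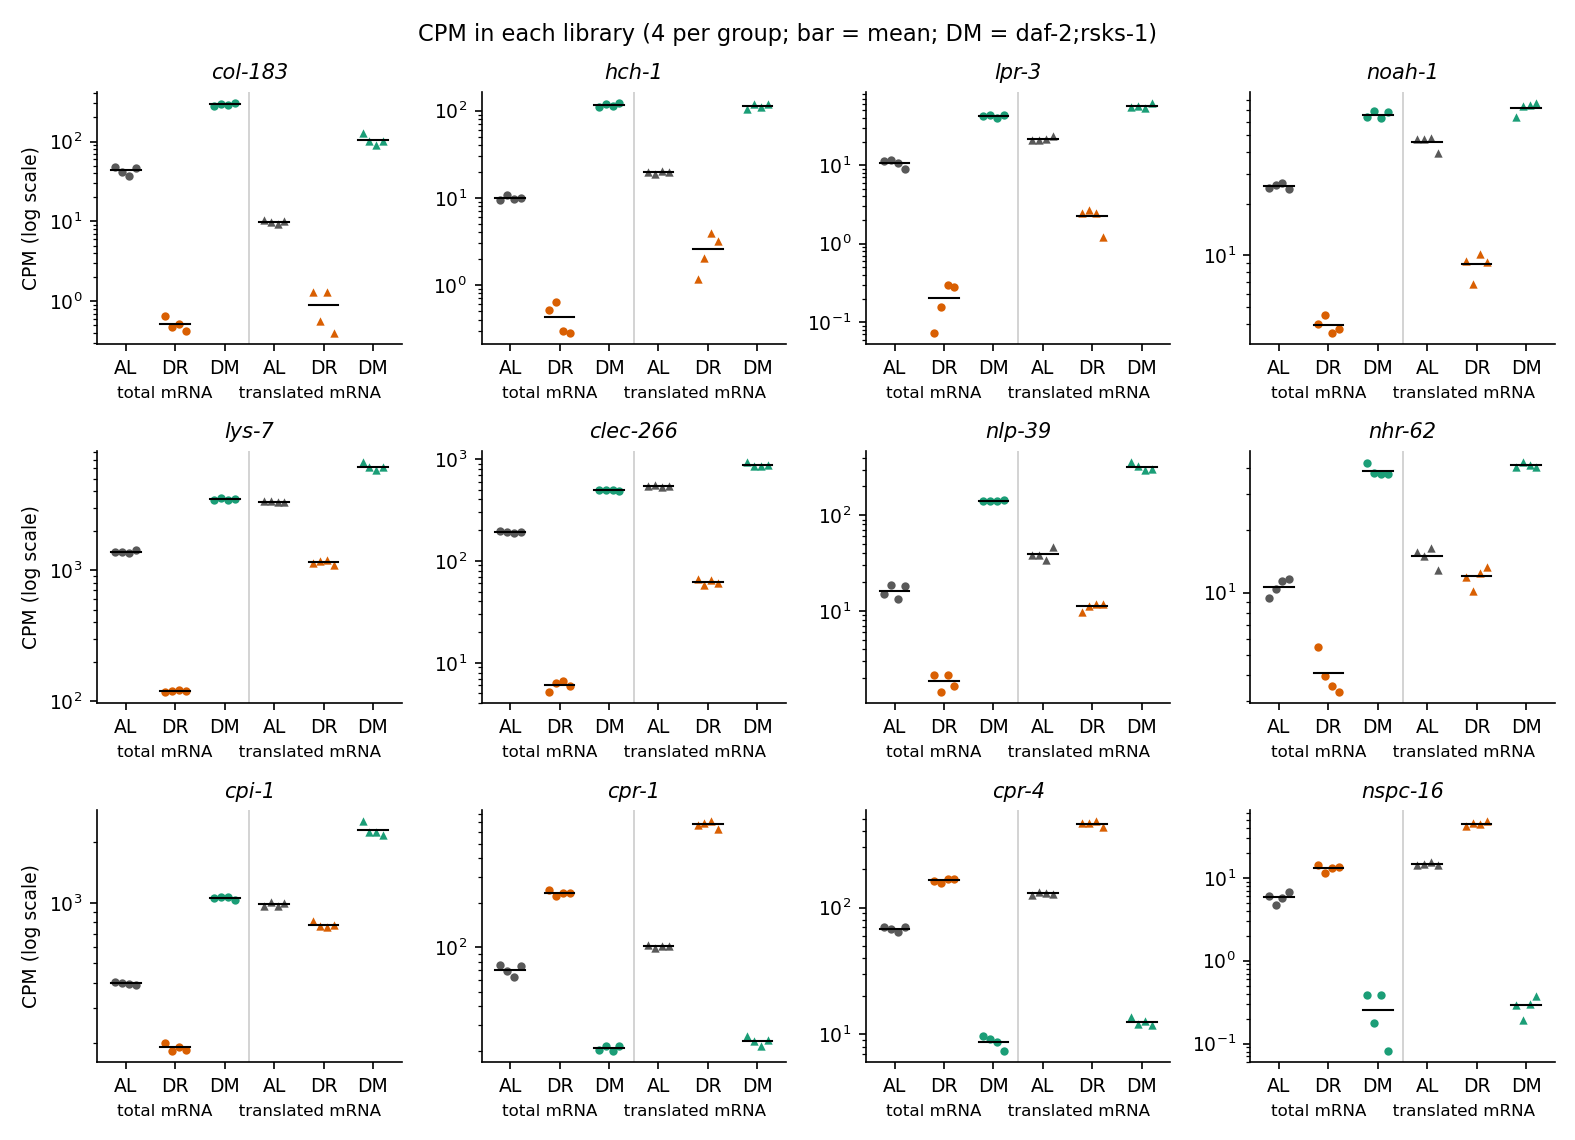
CPM on a log axis in each of the 24 libraries for 12 of the 61 genes, as circles for total and triangles for translated mRNA, with the mean of each group of 4 as a bar. In every panel for total mRNA the DR and mutant libraries lie on opposite sides of the AL libraries; on polysomes *nhr-62* has overlapping AL and DR values.

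A wider list of 13 embryonic apical matrix genes was drawn up after these values were seen. Its levels and counts are therefore a description and cannot serve as a test. Of the 13, 11 had a mean total mRNA in the order DR, AL, mutant from low to high, but *lpr-3*, *sym-1*, *noah-1* and *noah-2* are among the 61 and had to show it. Of the other 9, 7 had this order. Only 1 of these 9, *egg-6*, reached the minimum level and did not have it, and the 7 were all among the 8 under the minimum, where 21.4% of the 17361 genes with reads had it. The fibrillin-like *fbn-1* was at 9.79 ± 0.655 CPM (SD, n = 4) under AL, 1.75 ± 0.279 CPM under DR and 30.2 ± 1.89 CPM in the mutant. The leucine-rich repeat gene *let-4* was at 3.92 ± 0.707, 0.243 ± 0.105 and 14.7 ± 0.907 CPM in the same order. The exceptions were *egg-6*, at 419 ± 13.1, 271 ± 4.17 and 269 ± 6.08 CPM, and *lpr-1*, at 0.889 ± 0.570, 0.463 ± 0.0953 and 0.736 ± 0.208 CPM.

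**Figure D4:**
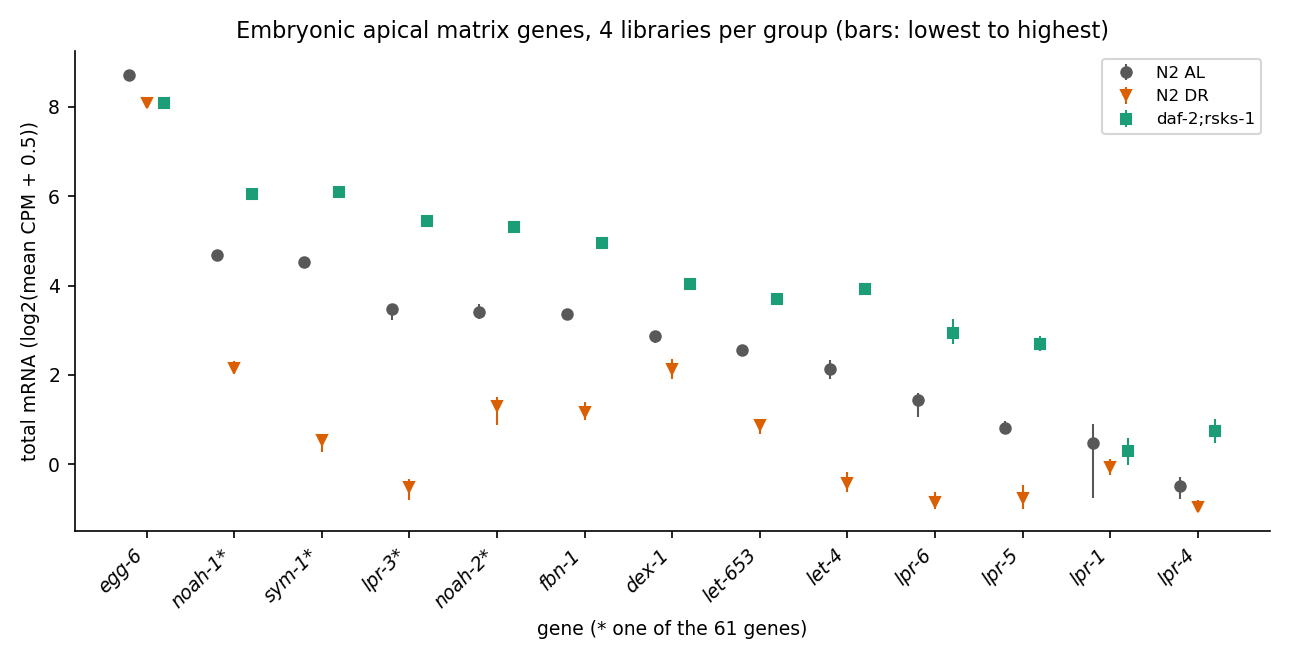
Total mRNA of the 13 apical matrix genes (log2 of the mean CPM + 0.5; bars run from the lowest to the highest of 4 libraries), with the 4 genes that belong to the 61 starred. The list was drawn up after these values were seen. In 11 of 13 genes the DR mean lies lowest and the mutant mean highest. The starred genes were chosen for this order, and *egg-6* and *lpr-1* do not follow it.

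The order DR, AL, mutant from low to high held for 2 of 17 eggshell and oocyte genes, 3 of 15 germ cell markers, 3 of 16 detected embryonic regulators and 6 of 12 epidermis markers, against 16.6% of all 8360 genes. However, 11 of the regulators and 5 of the epidermis markers were under the minimum level. Of these, 1 of the 11 and 3 of the 5 had the order, against 21.4% of all genes with reads under the minimum. The summed level of 17 eggshell and oocyte genes was 20351 to 21245 CPM under AL, 13929.8 to 14626 CPM under DR and 13741 to 14694 CPM in the mutant in total mRNA, lower in both. In translated mRNA it was 18776 to 19985, 14425 to 15435 and 13729 to 14239 CPM, and on polysomes 12 of the 17 fell under DR while 1 fell and 1 rose in the mutant. The 15 germ cell markers summed to 3147 to 3214, 2657 to 2702 and 2658 to 2810.4 CPM in total mRNA, lower in both. In translated mRNA they summed to 1817 to 1932, 1758 to 1890 and 2413 to 2627 CPM, highest in the mutant. On polysomes 0 of the 15 were called under DR, and 1 rose and 0 fell in the mutant. A list of 17 regulators that the embryo transcribes itself was also drawn up after the values were seen. It summed to 389.6 to 401, 293 to 303 and 321 to 341 CPM in total mRNA. In translated mRNA the sums were 157 to 176, 131 to 144 and 151 to 164 CPM. The T-box gene *tbx-37* was at 3.48 ± 0.424, 0.282 ± 0.142 and 1.13 ± 0.122 CPM. In that list *hlh-1* is listed at 0. In total mRNA the 12 epidermis markers summed to 467 to 517 CPM under AL, 714 to 757 CPM under DR and 457 to 482 CPM in the mutant. In translated mRNA they summed to 242 to 265, 519 to 609 and 274 to 299 CPM. The sum does not stand for the single markers. Of the 7 kept, 1 was at least 2-fold higher and 2 were at least 2-fold lower in total mRNA under DR, with a median of -0.52. In the mutant 1 was higher and 0 were lower, with a median of -0.45. The part of embryo or epidermis content in the matrix gene values was not tested.

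Cuticle collagens build the layered exoskeleton, and 3 of the 46 genes, *col-183*, *dpy-14* and *dpy-17*, encode such proteins. The total mRNA of *col-183* was at 47.9, 42.1, 37.6 and 46.3 CPM under AL, 0.657, 0.472, 0.517 and 0.423 CPM under DR and 282, 298, 285 and 299 CPM in the mutant. The mean under AL was 84.0-fold that under DR, and 28 reads were counted over the 4 DR libraries. On polysomes *col-183* was at 10.4, 9.87, 9.32 and 10.2 CPM under AL, 1.31, 0.567, 1.31 and 0.404 CPM under DR and 129, 101, 91.1 and 102 CPM in the mutant. It fell by 2.97 ± 0.14 under DR (SE; limma adjusted p = 1.01e-20) and rose by 3.34 ± 0.14 (SE; limma adjusted p = 3.41e-22), and no library of a group crossed into another. It was also among 3 genes with less translated than total mRNA in the mutant by more than 1 log2 unit, along with W04A8.4 and F15D4.5. For *dpy-14* the changes on polysomes were -3.18 ± 0.09 and 1.30 ± 0.09, both called. *dpy-17* fell under DR (-1.76 ± 0.08) and reached 0.87 ± 0.08 in the mutant, under 2-fold. Among the 44 other collagens kept, 11 rose and 2 fell on polysomes under DR, and 12 rose and 1 fell in the mutant, with medians of 0.19 and 0.15.

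The 46 genes held 1 of 9 lysozymes, 1 of 42 C-type lectins and 1 of 31 antimicrobial and neuropeptide-like genes kept. These families were drawn by gene symbol, and the last does not include the antimicrobial peptide gene *abf-2*, which is also among the 46. The lysozyme *lys-7*, which the intestine makes against bacteria, was at 1376, 1387, 1361 and 1430.3 CPM under AL, 118, 119.8, 122 and 119.004 CPM under DR and 3461, 3585, 3433 and 3495 CPM in the mutant in total mRNA. The 3 groups were far apart, with a mean under AL 11.6-fold that under DR. On polysomes *lys-7* was at 3364, 3398, 3309 and 3306 CPM under AL, 1128, 1185, 1189 and 1101 CPM under DR and 6660.4, 6101, 5861 and 6136 CPM in the mutant. The fall under DR was -1.54 ± 0.03 (SE; limma adjusted p = 4.92e-31) in translated against -3.53 in total mRNA, and the difference in the mutant was 0.89 ± 0.03 (SE; limma adjusted p = 1.87e-23), under 2-fold. Of the 8 other lysozymes, 2 rose and 1 fell on polysomes under DR, and 1 rose and 2 fell in the mutant. The C-type lectin *clec-266* was at 548, 549, 533 and 537 CPM under AL, 66.2, 57.5, 64.3 and 61.04 CPM under DR and 923, 845, 848 and 869 CPM in the mutant on polysomes. It fell by 3.11 ± 0.05 (SE; limma adjusted p = 3.22e-36) and its difference in the mutant was 0.68 ± 0.05. In comparison, 14 of the 41 other C-type lectins fell under DR and 17 fell in the mutant, while 9 and 4 rose. The neuropeptide-like gene *nlp-39* was at 38.7, 38.6, 33.6 and 46.4 CPM under AL, 9.62, 11.3, 11.8 and 11.9 CPM under DR and 356, 324, 298 and 306 CPM in the mutant on polysomes, with no overlap. It fell under DR (-1.77 ± 0.10) and rose in the mutant (3.02 ± 0.10 SE, limma adjusted p = 1.12e-25). Among the 30 other genes of the antimicrobial and neuropeptide-like family, 17 rose and 5 fell under DR, and 5 rose and 1 fell in the mutant.

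Lists of insulin and TOR signalling genes, DAF-16 targets and fasting genes held 61 of the 8360 genes kept (0.73%) and 3 of the 61 described here (4.92%). The second share rests on 3 genes, and the lists were chosen with earlier results of these data known. Whether the shares differ was not tested. None of these 3 was among the 23 signalling genes kept. Of 13 genes listed as raised through DAF-16, *lea-1*, which encodes a late embryogenesis abundant protein of desiccation tolerance, was the 1 member. Its translated mRNA was at 276, 253, 262 and 236 CPM under AL, 109, 114, 111 and 105 CPM under DR and 759, 818, 829.7 and 835 CPM in the mutant. DR libraries were below and mutant libraries above those of AL, with changes of -1.22 ± 0.04 (SE; limma adjusted p = 2.88e-24) and 1.66 ± 0.04 (SE; limma adjusted p = 2.56e-28). The other 12 moved differently under DR, where 7 rose (median 1.46), and 10 of them rose in the mutant. Of 13 genes listed as lowered through DAF-16, the gut esterase *ges-1* was the member, although it was higher in the mutant: 26.7 to 30.001 CPM under AL, 7.23 to 10.4 CPM under DR and 58.8 to 65.1 CPM in the mutant in total mRNA. On polysomes *ges-1* changed by -1.21 ± 0.07 (SE; limma adjusted p = 1.83e-18) under DR and by 0.83 ± 0.07 in the mutant, where the rise is under 2-fold. Among the other 12, 6 fell and 2 rose under DR, and 8 fell in the mutant.

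The nuclear hormone receptor *nhr-62*, known to be required for the longer life of food-limited worms, had total mRNA at 9.38, 10.46, 11.4 and 11.6 CPM under AL, 5.47, 3.94, 3.55 and 3.32 CPM under DR and 42.3, 37.8, 37.5 and 37.5 CPM in the mutant. All 4 DR libraries were below and all 4 mutant libraries above those of AL. On polysomes it was at 15.7, 15.1, 16.36 and 12.9 CPM under AL, 11.95, 10.2, 12.5 and 13.3 CPM under DR and 40.6, 42.6, 41.3 and 40.5 CPM in the mutant, and the AL and DR ranges overlapped. The difference under DR was -0.31 ± 0.10 (SE; limma adjusted p = 0.00596), whereas it rose in the mutant (1.43 ± 0.10 SE, limma adjusted p = 3.54e-15). Among the 13 other genes of the fasting response and fat breakdown, 7 rose and 1 fell under DR, and 3 rose and 1 fell in the mutant. The fatty acid- and retinol-binding protein gene *far-3* had translated mRNA at 289 to 303 CPM under AL, 144 to 160.4 CPM under DR and 851 to 954 CPM in the mutant. Its change under DR was -0.95 ± 0.04, just short of 2-fold (-1.06 without the composition factor), and it rose in the mutant by 1.57 ± 0.04 (SE; limma adjusted p = 3.74e-30). The cytochrome P450 gene *cyp-25A2* rose in the mutant (1.28 ± 0.07), while its DR values on polysomes, 20.99, 19.4, 21.9 and 17.9 CPM, overlapped those of AL, 23.03, 22.5, 21.4 and 20.6 CPM (limma adjusted p = 0.099).

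Several further genes had large changes in both directions. On polysomes D1086.3 was at 189, 186.2, 182 and 182.9 CPM under AL, 30.8, 28.01, 29.5 and 26.7 CPM under DR and 1091, 1008, 972 and 969.9 CPM in the mutant. It fell by 2.67 ± 0.06 under DR and rose by 2.44 ± 0.06 (SE; limma adjusted p = 5.05e-30). F56D6.9 had the largest rise of the 61 genes on polysomes in the mutant, 3.51 ± 0.11 (SE; limma adjusted p = 6.12e-26), and fell by 2.68 ± 0.11 under DR. Its translated mRNA was at 38.5, 34.8, 34.4 and 37.99 CPM under AL, 4.81, 3.74, 6.68 and 6.33 CPM under DR and 499, 401, 384 and 407 CPM in the mutant. Of its exon bases, 25% lie under another gene of the same strand, *oac-21*, so reads of the pair may be mixed. The catechol-O-methyltransferase family gene *comt-4* fell by 2.67 ± 0.08 and rose by 1.17 ± 0.08. The hedgehog-related *wrt-10* fell by 2.99 ± 0.11, with 0.36 ± 0.11 in the mutant. F46F2.3, T16G1.5, W04A8.4 and the sodium/proton exchanger *slc-9B.1* also passed in both contrasts, with changes of -2.39 to -1.15 under DR and 1.17 to 2.27 in the mutant. F33E2.5 and EEED8.2 fell under DR (-2.47 ± 0.07 and -2.27 ± 0.11) and were less than 2-fold higher in the mutant (0.38 ± 0.07 and 0.37 ± 0.11).

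Other genes kept the mutant change on polysomes but not that under DR. Y51B9A.8 had total mRNA at 5.98 to 6.47 CPM under AL, 1.85 to 2.48 CPM under DR and 37.1 to 41.1 CPM in the mutant. On polysomes it was at 12.9, 11.98, 11.7 and 10.9 CPM under AL, 15.7, 13.7, 9.87 and 10.9 CPM under DR and 93.5, 83.0, 82.8 and 82.8 CPM in the mutant. The DR and AL libraries overlapped (limma adjusted p = 0.592, difference 0.06 ± 0.10, and -0.05 without DR library 1 or without the composition factor), whereas the mutant rose by 2.80 ± 0.10. F13H8.11 gave 0.05 ± 0.09 (SE; limma adjusted p = 0.63) under DR, or -0.06 without the composition factor, and 1.06 ± 0.09 in the mutant. PDB1.1 was under 2-fold lower on DR polysomes (-0.27 ± 0.06 SE, limma adjusted p = 1.65e-04) and rose by 2.02 ± 0.06 in the mutant. F55H12.4 rose in the mutant (1.32 ± 0.04), and DR gave -0.41 ± 0.04. Neither contrast passed for *fbxa-98* (-0.59 ± 0.09 under DR and 0.79 ± 0.09 in the mutant) or for *eol-1*, known for a role in olfactory learning (-0.55 ± 0.08 and 0.28 ± 0.08).

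F15D4.5 was the exception to the direction. Its total mRNA was at 31.7, 31.1, 27.1 and 32.3 CPM under AL, 12.8, 13.4, 11.7 and 11.5 CPM under DR and 91.9, 88.6, 90.6 and 89.6 CPM in the mutant, so that the mutant was highest. Its translated mRNA was at 38.8, 44.3, 39.1 and 36.96 CPM under AL, 12.8, 14.4, 13.1 and 11.6 CPM under DR and 31.9, 29.3, 29.7 and 29.2 CPM in the mutant, with the mutant libraries below all AL libraries. The difference in the mutant was -0.40 ± 0.07 (SE; limma adjusted p = 2.94e-06) on polysomes against 1.55 in total mRNA, and the fall under DR was -1.58 ± 0.07.

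The rule for naming genes left out 12 of the 46, which are named here after their values were seen. The acid phosphatase *acp-6* passed in both contrasts (-1.20 ± 0.04 under DR and 1.47 ± 0.04 in the mutant), as did F23D12.11, F56D6.8 and *drd-1*, a gene named for its lower mRNA under DR. The call of *drd-1* in the mutant (1.02 ± 0.11) was lost without AL library 1 (0.98), AL library 3 (0.999985) or mutant library 1 (0.98). The immunoglobulin-domain gene *igcm-3*, *dao-2* and F53B3.5 fell under DR and were 0.80 to 0.95 higher in the mutant. The antimicrobial peptide gene *abf-2*, the cadmium-responsive *cdr-2* and the serine carboxypeptidase *ctsa-4.2* rose in the mutant by 1.82, 1.29 and 1.64, with -0.37, -0.76 and -0.77 under DR. The stomatin *sto-1* and R13H4.5 passed neither test, at -0.89 and -0.72 under DR and 0.71 and 0.99 in the mutant. F53B3.5 passed in the mutant without mutant library 1 (1.01), and R13H4.5 passed without AL library 3 (1.015), AL library 4 (1.003), mutant library 2 (1.0005) or mutant library 3 (1.007).

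Among the 15 genes that were higher under DR and lower in the mutant, cathepsin B-like cysteine proteases stood beside nematode-specific peptides. The protease gene *cpr-1*, expressed in the intestine, had total mRNA at 76.5, 69.5, 62.7 and 74.4 CPM under AL, 243, 224, 234 and 234 CPM under DR and 20.1, 21.7, 19.99 and 21.7 CPM in the mutant. DR libraries were highest and mutant libraries lowest. On polysomes it was at 104, 98.5, 102 and 102 CPM under AL, 675, 695, 709 and 634 CPM under DR and 25.1, 23.4, 21.4 and 23.5 CPM in the mutant. The changes were 2.73 ± 0.05 (SE; limma adjusted p = 3.07e-33) under DR and -2.10 ± 0.05 (SE; limma adjusted p = 1.62e-29) in the mutant. For *cpr-4* the translated levels were 126, 132, 130.2 and 129 CPM under AL, 465, 465, 477 and 432 CPM under DR and 13.7, 12.001, 12.7 and 11.9 CPM in the mutant, again without overlap. It rose by 1.82 ± 0.06 (SE; limma adjusted p = 1.71e-26) and fell by 3.31 ± 0.06 (limma adjusted p = 1.61e-34). Other intestine markers, among them the vitellogenin genes *vit-2* and *vit-6*, summed to 32793 to 37332 CPM under AL, 30211 to 31852 CPM under DR and 17898 to 18112 CPM in the mutant on polysomes. These markers leave out *ges-1*, described above, which was higher in the mutant by 0.83 on polysomes. Of the other 10, 6 fell on polysomes in the mutant (median -1.07) and 1 rose under DR (median 0.38). The sum does not stand for the single markers, and their part in these values was not tested.

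The cystatin *cpi-1*, which encodes an inhibitor of cysteine proteases, had the reverse pattern and belongs to the 46. Its total mRNA was at 406, 399.7, 395 and 391 CPM under AL, 202, 183.3, 192 and 185.8 CPM under DR and 1061, 1065, 1066 and 1030.1 CPM in the mutant. On polysomes it was at 966, 1007, 963 and 996 CPM under AL, 812, 768, 763 and 775 CPM under DR and 2545, 2255, 2249 and 2190.5 CPM in the mutant. The mutant rose by 1.23 ± 0.04 (SE; limma adjusted p = 6.45e-27), while the DR libraries were lower by less than 2-fold (-0.33 ± 0.04 SE, limma adjusted p = 1.35e-10). In the same libraries, *cpr-1* and *cpr-4* together came to 230.4 to 232 CPM under AL, 1065 to 1186 CPM under DR and 34.1 to 38.8 CPM in the mutant. The other 7 cysteine cathepsins and cystatins kept, a list drawn up after the values were seen, were not among the 61: *cpr-3* was lower in both on total mRNA (66.6 ± 3.26 CPM under AL, 12.26 ± 1.29 under DR and 38.2 ± 1.49 in the mutant), and *cpr-5* was higher under DR (2.94 ± 0.315, 15.02 ± 1.41 and 4.28 ± 0.738 CPM). The second cystatin, *cpi-2*, was at 299 ± 5.32, 216 ± 4.08 and 305 ± 10.6 CPM. Under the minimum level, *cpr-2* was at 0.362 ± 0.0333 CPM under AL, 4.499 ± 0.660 CPM under DR and 181 ± 3.42 CPM in the mutant. Of 16 other lysosomal proteases, 2 rose and 2 fell on polysomes under DR, and 1 rose and 3 fell in the mutant.

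The 4 genes *nspc-16* to *nspc-19* (nematode-specific peptide family, group c) lie next to each other on the X chromosome, each with a coding length of 309 bases. Copies of such a family can share reads, so their sum is given as well. On polysomes *nspc-16* was at 14.4, 14.9, 15.6 and 14.3 CPM under AL, 41.98, 45.7, 44.99 and 47.8 CPM under DR and 0.289, 0.195, 0.303 and 0.370 CPM in the mutant. The mutant libraries were close to 0, with 17 reads over all 4. It rose by 1.58 ± 0.13 (SE; limma adjusted p = 6.15e-14) under DR and fell by 4.28 ± 0.13 in the mutant. The other 3 rose by 1.39 to 2.05 and fell by 3.10 to 3.70. Over the mutant translated libraries *nspc-17* had 12 reads and *nspc-19* had 10. The mutant change of *nspc-19* ran from -4.75 to -2.40 over the alternatives. Summed over the 4 genes, the translated level was 39.9 to 45.5 CPM under AL, 126 to 137 CPM under DR and 1.23 to 1.76 CPM in the mutant, and the total level 16.13 to 18.5, 39.4 to 46.3 and 0.490 to 1.13 CPM. Of 11 other nematode-specific peptide genes kept, 4 rose under DR, and 1 rose and 6 fell in the mutant.

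Of the remaining 9 genes, F42A10.7 changed most. Its translated mRNA was at 21.4, 22.6, 23.9 and 25.1 CPM under AL, 276, 271, 286 and 269.8 CPM under DR and 2.75, 2.14, 1.94 and 1.63 CPM in the mutant. It rose by 3.54 ± 0.10 (SE; limma adjusted p = 4.54e-28) and fell by 3.20 ± 0.10, so that the DR mean was 130.4-fold that of the mutant. *vmo-1*, named for its likeness to the vertebrate vitelline membrane outer layer protein, rose by 2.02 ± 0.14 and fell by 3.04 ± 0.14, with 18 reads over the mutant libraries. T05E12.3, W03D8.8 and C10C5.4 rose by 1.47 to 2.23 and fell by 1.82 to 2.503. W03D8.8 had 23 reads over the mutant translated libraries, and its mutant change ran from -3.21 to -1.85 over the alternatives. F46C5.1 differed between the pools under DR: in total mRNA it was at 3.23, 2.83, 2.24 and 2.70 CPM under AL and 27.003, 26.5, 28.5 and 26.0 CPM under DR, and on polysomes at 4.05, 2.11, 3.75 and 3.48 and 8.75, 7.37, 8.71 and 6.47 CPM. It rose on polysomes by 1.14 ± 0.15 (SE; limma adjusted p = 1.56e-08), a call that was lost without AL library 2 (0.96). F18E3.12 and T19H12.3 rose under DR (2.12 ± 0.10 and 1.30 ± 0.12), but in the mutant differed by -0.20 ± 0.10 (SE; limma adjusted p = 0.0771), or 0.09 without the composition factor, and -0.54 ± 0.12. F19H6.4 fell in the mutant (-1.67 ± 0.05) and was under 2-fold higher on DR polysomes (0.47 ± 0.05).

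Most of these genes had a higher CPM in translated than in total mRNA. The difference of translated minus total mRNA had a median of 0.88 log2 units for the 46 genes under AL, 1.45 under DR and 0.68 in the mutant, where all 8360 genes had 0.02, -0.05 and -0.02. For the 15 genes the medians were 0.80, 1.33 and 0.34. The value was above 0 for 44, 44 and 39 of the 46 and for 15, 14 and 13 of the 15, against 4270, 4017 and 4087 of the 8360. It was higher under DR than under AL in 39 of the 46 and in 13 of the 15, by a median of 0.64 and 0.32, against 4307 of 8360 genes (51.5%) and a median of 0.02. In the mutant it was higher than under AL in 16 of the 46 and 3 of the 15, with medians of -0.18 and -0.41, against 4079 of 8360 (48.8%) and -0.01. The shift under DR was not particular to these genes. The 612 other genes at least 2-fold lower under DR had median changes of -1.50 in total and -1.17 in translated mRNA. For the 304 other genes at least 2-fold higher these were 1.28 and 1.44. The largest gains under DR were those of *col-183* (2.46), F46F2.3 (2.06), *lys-7* (1.99) and *clec-266* (1.78), and F46C5.1 had the largest loss (-1.95). These ratios contain the total mRNA values that chose the genes, and 14 of the 61 genes reached the minimum level only with their translated mRNA, so they are not tested.

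**Figure D5:**
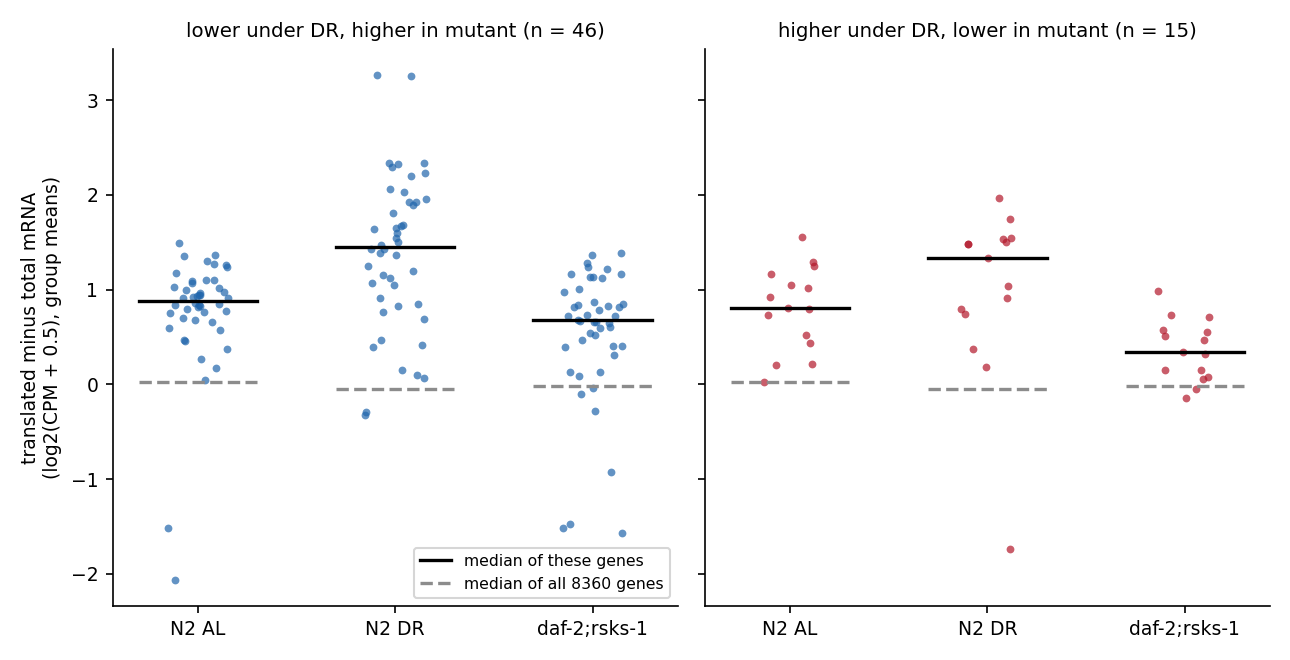
Translated minus total mRNA (log2(CPM + 0.5), group means) of each of the 46 genes (left) and the 15 genes (right) in N2 AL, N2 DR and daf-2;rsks-1, with their median as a black line and that of all 8360 genes dashed. The medians of both sets are highest under DR, at 1.45 and 1.33, and lowest in the mutant, at 0.68 and 0.34.

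Set directly against each other on polysomes, without the AL libraries, the mutant was higher than DR for 45 of the 46 genes (7.22% of all genes tested were higher) and lower for all 15 (9.16% of all genes tested were lower). The medians were 2.80 and -4.81, against -0.01 for all genes (0.40 without the composition factor, where 79.2% of the calls over all genes were increases against 44.1% as deposited). All 4 mutant libraries lay above all 4 DR libraries for the 46 genes (34.4% of all genes tested) and below them for the 15 (37.7% of all genes tested). The span was widest for *col-183* (6.30 ± 0.14 SE, limma adjusted p = 5.45e-31) and F56D6.9 (6.19 ± 0.11) among the 46 and for F42A10.7 (-6.74 ± 0.10 SE, limma adjusted p = 7.02e-37) and *nspc-16* (-5.86 ± 0.13) among the 15. It was narrowest for *eol-1* (0.83 ± 0.08), which did not reach 2-fold, and F13H8.11 (1.01 ± 0.09), whose call was lost without DR library 2 (0.96) or DR library 4 (0.99). Because the choice set DR and the mutant apart in total mRNA of the same lysates, the direction here is given by how the genes were chosen.

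All 61 genes are annotated as protein coding. Their coding length had a median of 945 bases for the 46 genes and 561 for the 15, against 1191 for all genes kept, and their median number of exons was 4.5 and 3 against 6. The X chromosome held 12 of the 46 and 5 of the 15, and chromosome V 10 and 6. Apart from the *nspc* row, F56D6.8 and F56D6.9 were the only neighbours. The libraries were unstranded, and 20 of the 61 genes share exon bases with another gene, over 10% of them in F56D6.9, *clec-266*, *col-183* and *comt-4*, so their reads may be mixed with those of the overlapping gene. Of the 46 genes, 36 reached the minimum level on total mRNA of the N2 libraries alone, as did 11 of the 15.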

How the data were processed

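Whole-worm mRNA of 3 groups of *C. elegans* was sequenced as total and as translated (polysomal) mRNA, with 4 libraries per group and pool. Per the labels and the study's methods, the authors aligned unstranded paired reads with TopHat to WS220, counted them with HTSeq 0.6.1 and normalised the table with edgeR 3.0. What the authors deposited, a signal per gene, is CPM divided by a composition (TMM) factor, and every value gave whole reads within 0.05 reads once the factor was taken out. Because the deposited values are normalised, limma 3.58.1 (R 4.3.3) was fitted with a mean-variance trend to log2(CPM + 0.5) of 8360 genes over all 24 libraries in 6 groups. Log2 changes and the 2-fold threshold are on that scale, which understates the change of low genes. A mean given as a multiple of that of another group is a ratio of mean CPM without the added 0.5. A gene was called at a Benjamini-Hochberg adjusted p under 0.05 and at least 2-fold. Changes in total mRNA chose the genes and were not tested.

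The members and lists were chosen with earlier results of these data known, and 3 lists (embryonic apical matrix, embryonic regulators, cysteine cathepsins and cystatins) were added after their values were seen. Genes were named by the size of their change in either pool (up to 15 in total mRNA and up to 5 at each end of each polysomal contrast per direction), by membership of a list or family, or by nearness to the threshold. This covered 49 of the 61. Each result was computed again with different pseudocounts, level filters and scalings, with edgeR 4.0.16 quasi-likelihood tests on recovered reads, with polysomal libraries only, with a replicate block and with each library left out. Gene features came from the Ensembl annotation of another build (WBcel235), matched by identifier for 44936 of 45461 genes, so no coordinates are given. The depth was 7960544 to 15658505 reads on genes per library, and reads of 3 or fewer in a library were taken as its floor. The counts of reads cover counting error only.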

Additional observations from a re-analysis of the deposited data

Results flagged for a closer look

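In 8 of 180 groups of 4 libraries tested, 1 library lay far from the other 3, and chance alone flags about 1 in 20 groups. In translated mRNA under DR, library 4 had 1.21 CPM of *lpr-3* (others 2.47 to 2.72) and 5.12 CPM of *sym-1* (others 3.06 to 3.21). In total mRNA under DR, library 3 had 6.57 CPM of W04A8.4 (others 7.55 to 7.74). In translated mRNA under AL, library 1 had 21.99 CPM of EEED8.2 (others 18.1 to 18.6) and library 3 had 10.45 CPM of T19H12.3 (others 6.95 to 7.21). In the mutant, translated library 1 had 205 CPM of *comt-4* (others 171 to 174), translated library 4 had 4.15 CPM of T19H12.3 (others 5.45 to 5.71), and total library 2 had 0.059 CPM of *nspc-19* (others 0.153 to 0.163), which is 1 read against 2 in each of the others, all under the floor of 3 reads. Outside the 180 groups, mutant translated library 1 had 638 CPM of F23D12.11 (others 524 to 534) and 954 CPM of *far-3* (others 851 to 865).

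For F15D4.5, every mutant library was above every AL library in total mRNA and below every AL library in translated mRNA. The change was 1.55 in total and -0.40 in translated mRNA on the log2 scale, and the difference between the pools was not tested.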

How the results depend on the processing

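The number of genes lower under DR and higher in the mutant was 46 as reported, 123 with no filter on low values and 32 when genes had to average 16 CPM in the N2 libraries, and lay between 44 and 48 with each library left out. The number with the reverse pattern was 15 as reported, 9 at that minimum of 16 CPM, 9 when they had to average 8 CPM in the 12 total mRNA libraries (an alternative chosen after seeing the data), and 15 with each library left out. The cause was not tested. In all 12 fits that left out a library 56 of the 61 genes kept their place, and in all 22 alternatives 35 did.

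On polysomes, with each library left out, the counts called were 31 of the 46 under DR, 13 to 14 of the 15 under DR, 28 to 30 of the 46 in the mutant, 12 of the 15 in the mutant, 44 to 45 of the 46 in the mutant against DR, and 15 of the 15 in that contrast. With only the genes that reached the minimum on N2 total mRNA alone (chosen after seeing the data), they were 26, 10, 21, 8, 36 and 11. The replicate numbers did not pair the samples. Correlations of deviations ran from -0.27 to 0.10 between polysomal groups and from -0.15 to 0.11 between same-numbered total and translated libraries of a group. The replicate block gave the same counts of 31, 14, 29, 12, 45 and 15. Among values of single genes under the alternatives, 2894 kept their direction and their side of the threshold, 20 passed it, 10 lost it and 4 reversed. Those that reversed were Y51B9A.8 under DR without the composition factor (-0.0463), F13H8.11 under DR (-0.0598) and F18E3.12 in the mutant (0.0907) likewise, and Y51B9A.8 with 1 library left out, where it ran from -0.0546 (without DR translated replicate 1) to 0.161. Over all genes, calls in the mutant were 316 higher and 557 lower, against 678 and 292 without the composition factor and 1197 and 863 with no filter. Those between the mutant and DR were 604 and 766, against 1405 and 370 and against 1834 and 1384. Those under DR were 625 and 658, against 1466 and 1387 with no filter.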
